A study of Mus musculus with 24 samples.

Results

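A set of 9 genes of hepatic glucuronidation and sulfation was followed through mouse livers that lack the transcription factors E2f7 and E2f8 and through recovery from an overdose of acetaminophen (APAP). The genes were taken by symbol from the deposited tables, in which 24411 genes are listed. They are 5 glucuronosyltransferases (Ugt1a1, Ugt2a3, Ugt2b1, Ugt2b34 and Ugt2b36), the sulfotransferase Sult1a1, and 3 enzymes that make the cofactors (Papss2, Ugdh and Ugp2). All 9 were in the tables and all 9 passed the filter on low counts in every comparison.

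Whole-liver RNA of male mice aged 2.5 months, fasted for about 16 h, was sequenced in 24 libraries. All mice carried loxP-flanked E2f7 and E2f8 alleles and the R26R-mTmG reporter of Cre activity, and the background of the second cohort was mixed and mainly FVB. In the first cohort 3 mice received AAV8-TBG-Null (control) and 3 received AAV8-TBG-Cre, in which the hepatocyte promoter TBG drives Cre (HKO). This virus was given at 2 months of age, and these 6 mice were sampled at 0 h only, so their livers had no APAP. In the second cohort Cre was driven by Alb, the albumin promoter, which acts in the liver lineage from before birth (LKO), and the controls were Cre-negative littermates, labelled WT. The second cohort had 4 single mice per genotype at 0 h, and 1 library per genotype for each of 5 times after APAP at 300 mg/kg (12, 24, 48, 72 and 96 h), made from 3 mice pooled. A pool gives 1 value with no spread between its mice. The livers labelled LKO are known for a high share of diploid hepatocytes, whereas adult deletion leaves ploidy as it was. Because virus, age at deletion and promoter differ together between the cohorts, their parts in any difference between HKO and LKO cannot be told apart.

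Reads on genes ranged from 12665686 to 19499897 per library. Levels are given as CPM, counts scaled to library size by the TMM method, and the 9 genes had 560 to 20912 reads in each library, far above the 0.141 to 0.260 CPM that 3 reads represent. The count of E2f8 covers the whole gene, including exons outside the deleted region, and therefore does not check the deletion. It was 15.2 to 26.4 CPM in the Null controls and 30.7 to 83.9 CPM in the mice labelled HKO, and 11.6 to 18.7 CPM and 17.6 to 34.2 CPM in the controls and mice labelled LKO at 0 h. E2f8 was thus not lower over the whole gene in the libraries labelled as knockouts, and genotypes are given here as labelled. The study reported reduced E2f8 in HKO when only selected exons were counted, and recombination of the reporter in nearly all HKO hepatocytes. All 11 hepatocyte markers in the tables were detected in every library, and their summed level was 66882 to 132187 CPM over the 14 mice at 0 h.

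Glucuronidation and sulfation are the conjugation reactions that make lipophilic molecules, among them bilirubin, steroids, bile acids and drugs, soluble enough to be excreted. In glucuronidation, UDP-glucuronosyltransferases (UGTs) of the endoplasmic reticulum transfer glucuronic acid from UDP-glucuronic acid. That donor is made in the cytosol from glucose 1-phosphate, first to UDP-glucose by UDP-glucose pyrophosphorylase (Ugp2) and then to UDP-glucuronic acid by UDP-glucose dehydrogenase (Ugdh). In sulfation, cytosolic sulfotransferases such as Sult1a1, which acts on small phenols, use the donor PAPS, which PAPS synthase (Papss2) makes from ATP and sulfate. Most of a therapeutic dose of APAP leaves the liver as its glucuronide and sulfate, and the remainder is oxidized by cytochromes P450 to a reactive quinone imine. Ugt1a1 is the bilirubin-conjugating enzyme, and the Ugt2 enzymes act on steroids, bile acids and many drugs.

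The genes lie on 5 chromosomes of GRCm38 (GENCODE vM21). Ugt1a1 is on chr1:88211959-88218997 and shares its last exons with the other Ugt1a genes, so only 913 of its 2224 exon bases (41.1%) belong to it alone. Of all 50-base windows of its transcripts, 80.2% occur in transcripts of other genes, which compares with 7.36% for Sult1a1, 4.55% for Ugt2a3 and at most 1.84% for the other members. Reads that map to several places or overlap several genes are not counted in the deposited tables, so the level of Ugt1a1 is counted mainly over the bases it does not share. The 4 Ugt2 genes lie in 1 cluster on chromosome 5, with Ugt2b34 at chr5:86889767-86906937, Ugt2b1 at chr5:86916638-86926530, Ugt2b36 at chr5:87065927-87092555 and Ugt2a3 at chr5:87324972-87337195, all on the minus strand. Ugdh is on the same chromosome at chr5:65413221-65435949, Sult1a1 at chr7:126672865-126676432, Ugp2 at chr11:21321138-21371201 and Papss2 at chr19:32595790-32667187. For none of these 8 was an exon base shared with another annotated gene.

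The 250 bases upstream of the start site are shown for Ugdh, the member called higher after APAP, and for 4 of the 5 members called lower at 24 h, Ugt2b36 being the other. Sequences are from RefSeq on GRCm38.p6 and are written 5′ to 3′ on the strand of the gene, for Ugdh chr5:65435843-65436092 (minus), Ugt1a1 chr1:88211709-88211958 (plus), Ugt2a3 chr5:87337196-87337445 (minus), Ugt2b1 chr5:86926504-86926753 (minus) and Papss2 chr19:32595465-32595714 (plus, the first of its start sites). Capitals mark matches, on either strand, to the motifs that were searched.
Ugdh: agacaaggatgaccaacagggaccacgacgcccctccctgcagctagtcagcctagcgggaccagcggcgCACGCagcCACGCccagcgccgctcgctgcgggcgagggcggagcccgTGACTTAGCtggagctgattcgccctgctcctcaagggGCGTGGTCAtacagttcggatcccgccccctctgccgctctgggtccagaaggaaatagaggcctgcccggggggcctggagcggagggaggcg
Ugt1a1: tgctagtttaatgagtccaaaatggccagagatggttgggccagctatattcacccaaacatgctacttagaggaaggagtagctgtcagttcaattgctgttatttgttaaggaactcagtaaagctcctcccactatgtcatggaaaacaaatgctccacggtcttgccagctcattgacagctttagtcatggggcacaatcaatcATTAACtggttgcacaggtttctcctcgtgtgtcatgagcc
Ugt2a3: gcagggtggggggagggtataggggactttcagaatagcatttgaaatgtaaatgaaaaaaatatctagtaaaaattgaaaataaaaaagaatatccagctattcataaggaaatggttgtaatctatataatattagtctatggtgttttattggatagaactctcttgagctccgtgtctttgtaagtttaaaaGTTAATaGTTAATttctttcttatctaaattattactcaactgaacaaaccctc
Ugt2b1: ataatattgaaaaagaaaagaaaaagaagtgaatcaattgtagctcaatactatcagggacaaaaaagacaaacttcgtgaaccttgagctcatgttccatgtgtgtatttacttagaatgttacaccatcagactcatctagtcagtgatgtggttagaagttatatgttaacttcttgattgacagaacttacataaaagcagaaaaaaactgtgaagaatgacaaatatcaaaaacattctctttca
Papss2: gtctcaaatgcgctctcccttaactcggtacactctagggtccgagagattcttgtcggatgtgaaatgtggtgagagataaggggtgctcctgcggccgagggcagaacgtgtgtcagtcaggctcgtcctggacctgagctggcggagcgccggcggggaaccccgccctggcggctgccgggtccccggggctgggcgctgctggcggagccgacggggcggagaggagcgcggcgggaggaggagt

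The motifs searched were TATAAA, the HNF1 core GTTAAT, the C/EBP motif TTGCNNAA, the core antioxidant response element TGACNNNGC, the AHR core GCGTG, the STAT motif TTCNNNGAA, the E-box CACGTG, and TTTGGCGC and TTTCCCGC for E2F. The Ugdh window held 2 matches to TGACNNNGC, beginning 132 and 94 bases before the start site, and 3 to GCGTG, the nearest of which overlaps the second antioxidant element. Of 32851 windows of the same length, 10.2% held TGACNNNGC and 28.2% held GCGTG. Ugt1a1 had 1 match to GTTAAT, beginning 41 bases before the start, and Ugt2a3 had 2 in tandem, beginning 54 and 47 bases before it, against 6.43% of all windows with any. Sult1a1 also had 1 match to GTTAAT, at 232 bases. The window of Ugt2b36 and that of the first start site of Ugp2 each held TTGCNNAA (9.56% of all windows), and the latter also held GCGTG 5 times. The second start site of Ugp2 had no match to any motif. No match to any of the motifs was found for Ugt2b1, Ugt2b34 or Papss2. No window of the 9 genes held either E2F motif, which occur in 0.417% and 0.895% of all windows. A match is a string of letters and no evidence of binding.

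Per kilobase of exon, with all annotated exons of a gene merged, the members spanned a wide range in the 4 control mice of the LKO cohort at 0 h. Ugt2b1 (409 ± 206 CPM per kb, SD, n = 4) and Ugt2b36 (396 ± 50.2) were the highest, and these neighbours did not differ beyond their spread. Sult1a1 followed at 221 ± 46.8 CPM per kb. Ugt2a3 (142 ± 22.3), Ugp2 (131 ± 31.9) and Ugt2b34 (119 ± 35.4) overlapped one another. Ugt1a1 stood at 71.8 ± 11.4 CPM per kb, in rank 7 of 9, but at 175 ± 27.7 in rank 4 when only its own exon bases were counted. Papss2 (40.1 ± 7.45) and Ugdh (19.7 ± 1.34) were the lowest. The merged exons span 6752 bases for Ugdh and 4312 for Ugt2b34, against 2059 to 2573 for Ugt2a3, Ugt2b1 and Ugt2b36. The order of the genes therefore depends on the annotated lengths. The enzymes that supply UDP-glucuronic acid differed in level, with Ugp2 above Ugdh also without the length (403 ± 98.0 and 133 ± 9.04 CPM).

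**Figure D1:**
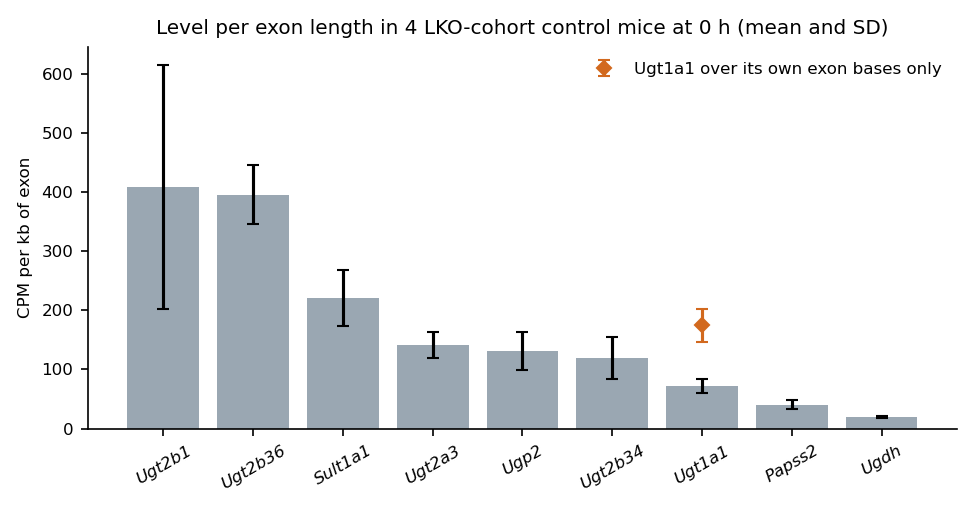
Level per exon length of the 9 genes in the 4 control mice of the LKO cohort at 0 h, in CPM per kb of exon (bars, mean; error bars, SD). Ugt2b1 and Ugt2b36 are near 400, and the diamond gives Ugt1a1 over the exon bases it does not share (175).

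The spread between mice of one group was uneven over the genes. In the 4 LKO-cohort controls, Ugt2b1 was 457, 756, 1486 and 1514 CPM, the widest spread of the 9 in this group (SD of 0.83 on the log2 scale, against 0.10 for Ugdh). The control mice with 1486 and 1514 CPM of Ugt2b1 also had the highest summed level of 8 genes known for higher expression in male liver, 19214 and 31773 CPM, whereas the mice with 457 and 756 CPM had 6280 and 7927 CPM. In the 4 mice labelled LKO, Ugt2b1 was 458, 562, 809 and 899 CPM beside summed male-patterned levels of 4160, 7364, 10125 and 15217 CPM, in the same order. The share of reads that could not be mapped ran in the same order, at 4.11, 6.74, 12.0 and 20.6% in the control mice and 4.37, 5.23, 7.20 and 13.5% in the LKO mice. The part of either in the spread of Ugt2b1 was not tested.

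At 0 h the comparison of mice labelled HKO with their Null controls asked what loss of E2f7 and E2f8 in adult hepatocytes did to these genes. No member was called (adjusted p under 0.05 with a change of 1.5-fold or more), where 0.96% of 12397 genes were called. At an unadjusted p under 0.05 there were 5 of 9, all lower in HKO, against 12.9% of all genes. The median log2 fold change of the 9 was -0.31, beside 0.01 over all genes.

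Papss2, the PAPS-making enzyme, was 199, 205 and 210 CPM in the Null controls and 88.5, 135 and 160 CPM in HKO. The groups did not overlap, and the log2 fold change was -0.66 (SE 0.18, adjusted p = 0.148, edgeR's quasi-likelihood test). DESeq2 gave adjusted p = 0.0170 for Papss2, and edgeR with replicate number as a block gave adjusted p = 0.0474 (-0.71). This call thus depends on the tool and the model. Ugt2b36 was 609, 615 and 716 CPM in controls and 459, 495 and 528 CPM in HKO, again without overlap (log2 fold change -0.37, SE 0.11, adjusted p = 0.161). Ugt2b1 did not overlap either, with 630 to 757 CPM in controls and 484 to 583 CPM in HKO (-0.35, SE 0.12, adjusted p = 0.252). Ugt2a3 was 253 to 269 CPM in controls and 166 to 240 CPM in HKO (-0.31, SE 0.14, adjusted p = 0.371). Sult1a1 was 334 to 475 CPM in controls and 296 to 339 CPM in HKO, and these ranges overlapped (-0.33, SE 0.13, adjusted p = 0.353). In all, 4 of 9 members had groups that did not overlap, against 18% of all genes.

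Ugt1a1, Ugt2b34, Ugdh and Ugp2 had overlapping groups in the HKO cohort. Ugt1a1 stood at 184 ± 46.5 CPM (SD, n = 3) in controls and 217 ± 39.7 CPM in HKO. Ugdh was nearly equal, at 108 ± 5.48 and 108 ± 16.6 CPM, as was Ugp2 at 287 ± 23.7 and 276 ± 47.4 CPM. Other measures moved with the HKO group. Of 14 clock genes 1 was called higher and 5 lower, among them Dbp (log2 fold change -2.70, adjusted p = 0.0176), Per3 (-2.40, adjusted p = 3.74e-04) and Arntl (2.24, adjusted p = 0.00346). The summed male-patterned level was 13597 to 15343 CPM in controls and 6910 to 8815 CPM in HKO, and the summed periportal level was 10485 to 11495 and 6557 to 7986 CPM. The summed hepatocyte level overlapped, at 97690 to 102481 and 89225 to 114756 CPM. The libraries differed as well, with 8.95 to 12.5% unmapped reads and TMM factors of 0.924 to 0.953 in controls against 5.72 to 7.25% and 0.990 to 1.01 in HKO, neither of which overlapped. The part of these in the lower levels of the conjugation genes was not tested.

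In the LKO cohort at 0 h, where deletion dates from development and livers are rich in diploid hepatocytes, 0 of 9 members and 0% of 12426 genes were called with edgeR. Not 1 of the 9 had an unadjusted p under 0.05, against 2.83% of all genes, and DESeq2 also called no member, with 3 genes called in all. The groups of every member overlapped. The largest difference was that of Ugt2b1, 1053 ± 530 CPM (SD, n = 4) in controls and 682 ± 207 CPM in LKO (log2 fold change -0.62, SE 0.36, adjusted p = 0.999). Papss2 had 149 ± 27.7 CPM in controls and 149 ± 32.6 CPM in LKO, and the SE of its log2 fold change was 0.18. Ugt2b36 was 815 ± 103 and 689 ± 75.2 CPM, and Ugdh 133 ± 9.04 and 114 ± 17.9 CPM. Sult1a1, Ugt2a3 and Ugp2 had log2 fold changes of -0.10, -0.09 and -0.01, with SEs of 0.23, 0.17 and 0.23.

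The effects in the 2 models were compared in 1 fit as the difference between the LKO and HKO log2 fold changes. No member was called, as was none of 12945 genes (0%), and 1 of 9 had an unadjusted p under 0.05, against 4.47% of all genes. That gene was Papss2, whose difference was 0.66 (SE 0.29, adjusted p = 1.00). The lower Papss2 of HKO was therefore not shown to be particular to that model after adjustment.

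**Figure D2:**
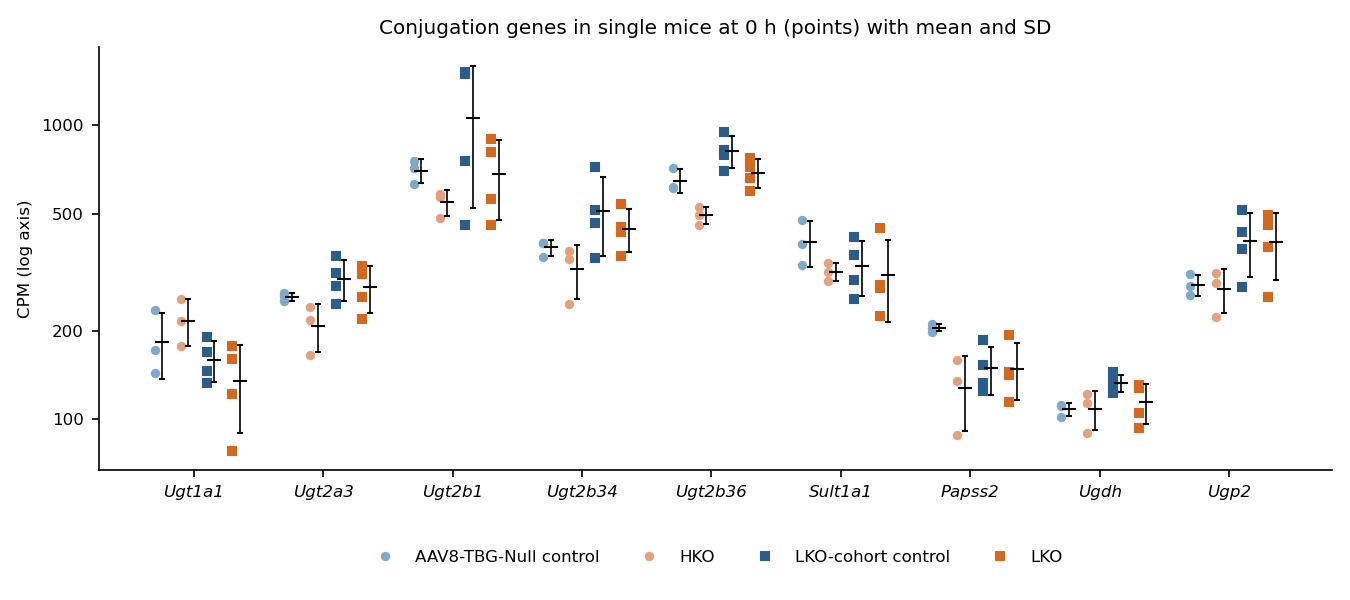
CPM (log axis) of the 9 genes in the 14 single mice at 0 h, by group (points), with the mean and SD in black beside them. Papss2, Ugt2b36, Ugt2b1 and Ugt2a3 do not overlap between Null controls and HKO, whereas in the LKO cohort the groups overlap for all 9 genes and Ugt2b1 has the widest spread among control mice.

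Most of the conjugation genes differed from 0 h within a day after APAP, and in whole liver fewer hepatocytes and less RNA per hepatocyte cannot be told apart. No untreated or vehicle-treated livers were sequenced at 12 to 96 h. The effects of APAP, of time since the fast and of pooling therefore cannot be told apart either. Each time point was compared with 0 h over both genotypes in 1 fit of the 18 LKO-cohort libraries. At 12 h, 4 members were called lower (Ugt2a3, Ugt2b1, Ugt2b36 and Papss2) and 1 was called higher (Ugdh), where 14.5% and 17% of 13328 genes were (31.5% in all). At 24 h, 5 members were called lower (Ugt1a1, Ugt2a3, Ugt2b1, Ugt2b36 and Papss2) and 0 higher, against 12.1% and 14.1% of all genes (26.1% in all). Of the 9, Ugt2b1 and Ugt2b36 (2) were called lower at 48 h, where 6.71% of all genes were lower and 10% higher (16.7% in all). Ugdh (1) was called higher at 72 h, where 11% were higher and 5.81% lower (16.8% in all). None was called at 96 h, where 0.338% were higher and 0.128% lower (0.465% in all). At 96 h, 1 member had an unadjusted p under 0.05 (15.8% of all genes), and DESeq2 also called none. The median log2 fold change of the 9 was -0.51, -0.83, -0.49, -0.27 and 0.12 from 12 to 96 h, while the median over all genes was between -0.04 and 0.

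Ugt2b1 had the largest fall. From 457 to 1514 CPM in the 8 mice at 0 h, it was 253 CPM in the control pool and 157 CPM in the LKO pool at 12 h, and 106 and 140 CPM at 24 h. Every pool at 12, 24 and 48 h lay below every mouse of its genotype at 0 h. The log2 fold change was -2.06 at 12 h (SE 0.57, adjusted p = 0.00993), -2.80 at 24 h (SE 0.60, adjusted p = 0.00267) and -1.88 at 48 h (SE 0.57, adjusted p = 0.0303). The value at 48 h joins unlike pools, -3.47 in control and -0.83 in LKO against their 0 h mice, and was -1.02 without the control pool and -3.50 without the LKO pool. By 96 h Ugt2b1 was 781 CPM in the control pool and 535 CPM in the LKO pool, both inside the range of their 0 h mice.

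Ugt2a3 and Ugt2b36, its neighbours in the cluster, fell less and also came back. Ugt2a3 was 220 to 358 CPM at 0 h, 152 and 122 CPM in the control and LKO pools at 12 h, and 102 and 153 CPM at 24 h. Its log2 fold change was -1.06 at 12 h (SE 0.30, adjusted p = 0.0115) and -1.22 at 24 h (SE 0.30, adjusted p = 0.00679). At 96 h it was 312 and 323 CPM. Ugt2b36 was 599 to 946 CPM at 0 h, and its pools had 498 and 292 CPM at 12 h and 429 and 420 CPM at 24 h. It was called at 12 h (-0.92, SE 0.27, adjusted p = 0.0151), at 24 h (-0.82, SE 0.27, adjusted p = 0.0303) and at 48 h (-0.80, SE 0.27, adjusted p = 0.0488), the last just inside the threshold. Ugt2b34 had 441 and 228 CPM at 12 h and 212 and 330 CPM at 24 h, from 354 to 718 CPM at 0 h. It was called at no time, with its lowest adjusted p, 0.108, at 24 h (-0.83, SE 0.38).

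Ugt1a1, the bilirubin enzyme, was not called at 12 h and was called lower at 24 h. It was 78.2 to 190 CPM at 0 h and still 141 and 179 CPM in the control and LKO pools at 12 h, a log2 fold change of 0.09 (SE 0.40). At 24 h it was 39.5 and 55.7 CPM, below every mouse at 0 h in both genotypes (-1.69, SE 0.46, adjusted p = 0.0113). The control pool then reached 28.3 CPM at 48 h and the LKO pool 121 CPM.

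Of the sulfation genes, Sult1a1 was called at no time and Papss2 at 12 and 24 h, a difference that was not tested. Sult1a1 was 257 to 417 CPM in the control mice at 0 h, and 218 and 222 CPM in the control pools at 24 and 48 h lay below all of them, whereas every LKO pool lay within the 225 to 448 CPM of the LKO mice. Its log2 fold change ran from -0.41 (SE 0.25) at 24 h to 0.30 (SE 0.24) at 96 h. Papss2 was 115 to 193 CPM at 0 h and fell to 57.6 and 56.1 CPM at 12 h and 47.8 and 56.0 CPM at 24 h. These 4 pools lay below every 0 h mouse (-1.37, SE 0.33, adjusted p = 0.00418, and -1.53, SE 0.33, adjusted p = 0.00273). At 96 h the pools had 237 and 258 CPM, above every 0 h mouse, though this difference was not called (0.72, SE 0.28, adjusted p = 0.225).

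Ugdh, which makes UDP-glucuronic acid, rose at 12 h, when 3 of the 6 transferases (Ugt2a3, Ugt2b1 and Ugt2b36) were called lower. It was 93.6 to 145 CPM at 0 h and 316 CPM in the control pool and 218 CPM in the LKO pool at 12 h, both above all 8 mice. The log2 fold change at 12 h was 1.13 (SE 0.17, adjusted p = 1.72e-04). At 24 h it was 153 and 188 CPM (0.47, SE 0.18, adjusted p = 0.0601, and 0.61 with a call at adjusted p = 0.00901 when scaled by library size alone), at 48 h 117 and 154 CPM, and at 72 h 167 and 210 CPM, when it was again called (0.62, SE 0.18, adjusted p = 0.0226). Ugp2, the step before Ugdh, was 261 to 515 CPM at 0 h and was called at no time. Its pools had 392 and 166 CPM at 12 h and 269 to 414 CPM from 24 to 96 h, so that the LKO pool at 12 h was its lowest.

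**Figure D3:**
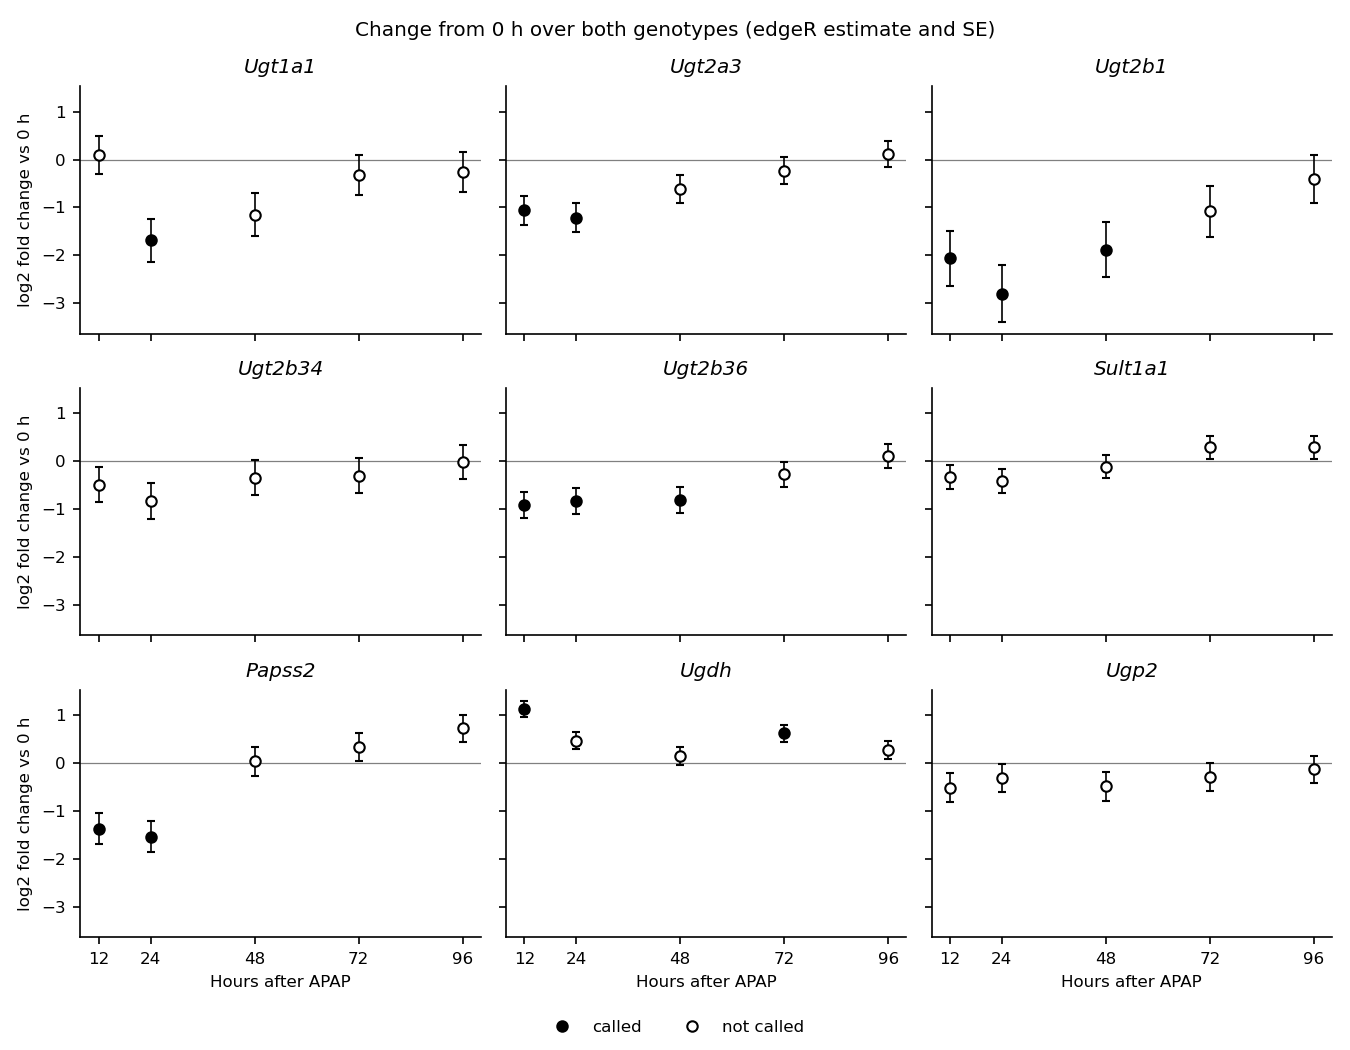
Log2 fold change against 0 h over both genotypes at 12 to 96 h after APAP (points, edgeR estimate; error bars, SE; filled, called). Ugt2b1 falls furthest (-2.80 at 24 h), Ugdh rises to 1.13 at 12 h, and all 9 genes are open points at 96 h.

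In each genotype alone, the number of members that were at least 2-fold below the mean of the 0 h mice peaked at different times. In control pools it was 2, 5, 5, 2 and 0 of 9 from 12 to 96 h, where 13.8%, 9.41%, 8.61%, 7.84% and 4.43% of genes were. In LKO pools it was 5, 3, 0, 0 and 0 of 9, where 10.9%, 7.82%, 4.51%, 2.42% and 2.39% of genes were. These are single pools and the difference in timing was not tested.

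With 2 pools per time point, 1 pool could decide these calls. Without the LKO pool at 12 h, only Ugdh was called at 12 h, with Ugt2b1 at -1.78, Papss2 at -1.19, Ugt2a3 at -0.79 and Ugt2b36 at -0.59, and without the control pool Ugt2b1 lost its call (-2.43, adjusted p = 0.0594) while Ugp2 gained one. Without the control pool at 24 h only Papss2 was called, and without the LKO pool only Ugt2b1. The fold changes without the control and without the LKO pool were -1.69 and -1.68 for Ugt1a1, -0.79 and -0.84 for Ugt2b36, -1.02 and -1.42 for Ugt2a3, and -2.52 and -3.10 for Ugt2b1. Papss2 was -1.47 without the LKO pool, beside -1.53 with both pools. At 48 h no member was called without the control pool and 4 (Ugt1a1, Ugt2a3, Ugt2b1 and Ugt2b36) without the LKO pool, and Ugt2b36 also lost its call without any 1 of 12 other libraries (adjusted p of 0.0536 to 0.0688), and its fold change ran from -0.25 without the control pool to -1.58 without the LKO pool. At 72 h the call of Ugdh was lost without the control pool (0.83, adjusted p = 0.0752) and without the LKO pool (0.41, adjusted p = 0.290). Without LKO mouse 2 at 0 h it was 0.58 with an adjusted p of 0.0320, just under the 1.5-fold limit. Markers of zones and other cells moved over the same hours. The summed level of 10 pericentral genes was 7255 to 12415 CPM at 0 h, then 5106, 1836 and 951 CPM in the control pools and 4400, 3519 and 3401 CPM in the LKO pools of 12, 24 and 48 h, and 7 of 10 were called lower at 24 h and at 48 h. The summed level of the 8 periportal genes was also below every 0 h mouse of its genotype, with 6333 to 11308 CPM at 0 h, then 3535, 2580 and 3795 CPM in the control pools and 6012, 2842 and 4800 CPM in the LKO pools, and 5 of 7 tested were called lower at 24 h. The summed level of 11 hepatocyte genes was 94170 to 166586 CPM in the 10 pools, against 66882 to 132187 CPM in the 8 mice at 0 h. Neutrophil genes summed to 2.37 to 11.2 CPM at 0 h and 13.3 to 29.3 CPM at 12 and 24 h. Macrophage genes summed to 632 CPM in both pools at 72 h, from 139 to 347 CPM at 0 h, and stellate genes to 974 and 735 CPM in the control and LKO pools, from 131 to 245 CPM. Cholangiocyte genes summed to 172 and 215 CPM in the control pools at 12 and 48 h and to 21.4 to 86.5 CPM in the other 8 pools, from 37.5 to 77.3 CPM at 0 h. The male-patterned sum was 2857 to 6902 CPM in the 10 pools, from 4160 to 31773 CPM at 0 h. Clock genes summed to 827 to 1024 CPM in the control mice at 0 h, and to 833, 472, 437, 484 and 756 CPM in the control pools from 12 to 96 h. In LKO they summed to 616 to 1043 CPM at 0 h, and to 690, 408, 462, 734 and 593 CPM in the pools. Unmapped reads were 2.63 to 5.84% in the pools and 4.11 to 20.6% in the 8 mice at 0 h. Their part in the changes of the conjugation genes was not tested.

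The comparison of LKO with control over 12 to 96 h, in which time entered as a block, asked for a genotype difference shared by the 5 times. It used the pools alone, and a difference that changed over time counted as spread. No member was called, against 0.579% of 12782 genes, and 2 of 9 had an unadjusted p under 0.05, against 17.9% of all genes. Ugt1a1 exceeded the control pool in the LKO pool of each of the 5 times, with a log2 fold change of 1.10 (SE 0.25, adjusted p = 0.0805). DESeq2 called it (adjusted p = 6.73e-04), as did edgeR without the filter on low counts (adjusted p = 0.0136). On simulated data for this comparison, 35 of 198 calls of DESeq2 were false, and 15 of 174 calls of edgeR. Papss2 was 0.61 (SE 0.25, adjusted p = 0.242). The other 7 lay between -0.03 (Ugp2) and 0.49 (Ugt2a3), with adjusted p-values of 0.304 and above. The change in the LKO effect from 0 h to 12 to 96 h was also tested. No member and no gene (0% of 13328) was called, and 1 of 9 members had an unadjusted p under 0.05, against 9.64% of all genes. That was again Ugt1a1, at 1.35 (SE 0.37, adjusted p = 0.382), and DESeq2 called no member.

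By time point the pools parted most at 48 h. The LKO pool was at least 2-fold above the control pool in 6 of 9 members and 2-fold below it in 0, against 6.81% and 8.82% of 13328 genes, and in the 6 it was 2.15- to 4.37-fold higher. Ugt2b1 had 370 CPM in the LKO pool and 84.6 CPM in the control pool, and Ugt1a1 121 and 28.3 CPM. Papss2 had 245 and 79.2 CPM, Ugt2a3 288 and 105 CPM, Ugt2b34 551 and 212 CPM, and Ugt2b36 580 and 269 CPM. Sult1a1 (377 and 222 CPM), Ugdh (154 and 117 CPM) and Ugp2 (302 and 269 CPM) were higher by less than 2-fold. All 9 control values at 48 h lay below every control mouse at 0 h, while 2 of 9 LKO values (Ugt2b1 and Ugt2b36) lay below every LKO mouse and 3 (Ugt2b34, Papss2 and Ugdh) above. The share of all genes that lay outside their 0 h mice was not counted, so these counts only describe the members. With 1 pool per genotype there is no test at a single time point.

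At the other times the picture was mixed. At 12 h the 9 genes had a median difference of -0.53 between the pools (log2, LKO minus control), and Ugp2 was at least 2-fold lower in LKO (166 against 392 CPM), where 11.7% of all genes were and 8.55% were higher. At 24 h no member differed 2-fold (2.97% of genes higher, 4.11% lower). At 72 h, 3 were at least 2-fold higher in LKO and 0 lower, against 6.02% and 6.4% of genes, Ugt1a1 (197 and 62.6 CPM), Papss2 (271 and 120 CPM) and Ugt2b34 (524 and 258 CPM). At 96 h none differed 2-fold (6.08% of genes higher, 4.22% lower), and the nearest was Ugt1a1 at 175 and 89.1 CPM, a ratio of 1.96.

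**Figure D4:**
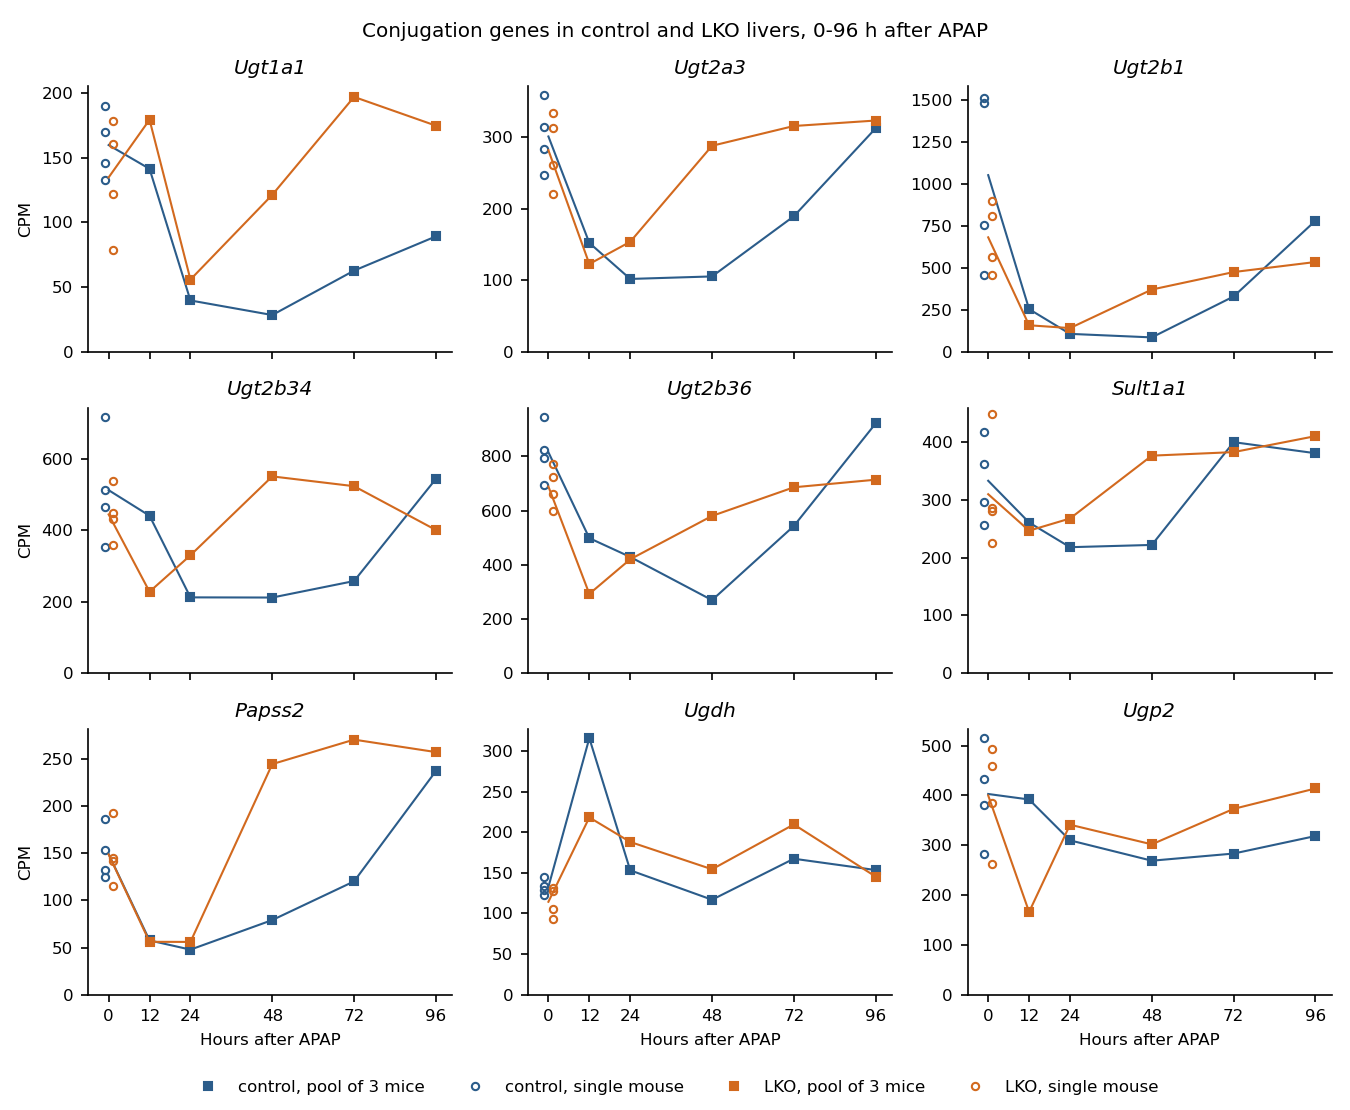
CPM of the 9 genes at 0 to 96 h after APAP in control (blue) and LKO (orange) livers. Open circles are single mice at 0 h, squares are pools of 3 mice, and lines join the 0 h mean to the pools. Ugt1a1, Ugt2a3, Ugt2b1 and Papss2 are below their 0 h mice in both genotypes at 24 h and are higher in LKO than in control at 48 h.

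**Figure D5:**
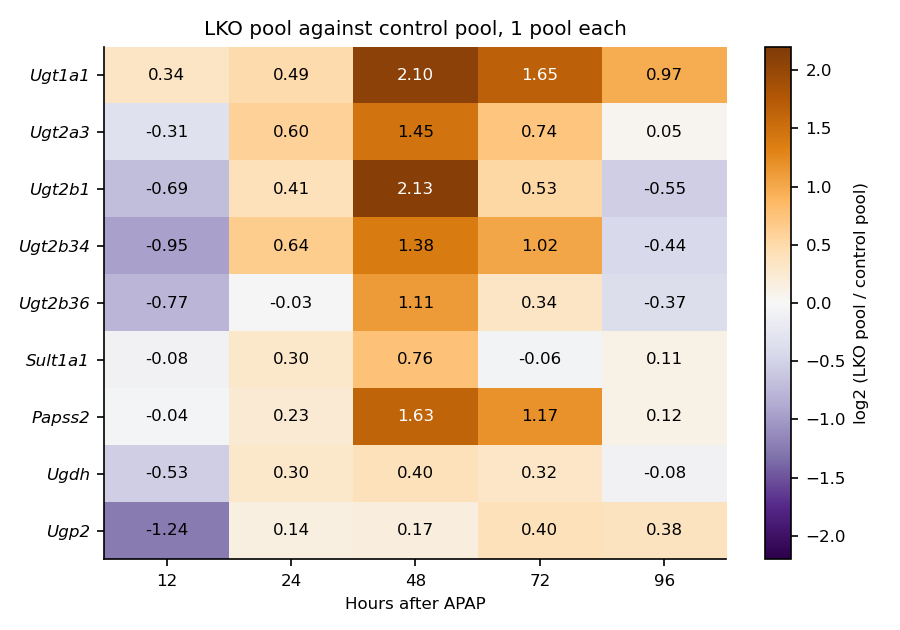
Log2 ratio of the LKO pool to the control pool for each gene and time, 1 pool per cell of the grid. The 48 h column holds the largest values, 2.13 for Ugt2b1 and 2.10 for Ugt1a1, and the lowest value is -1.24 for Ugp2 at 12 h.

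Other measures differed between the pools too. At 48 h the summed pericentral level was 3401 CPM in LKO and 951 CPM in control, the cholangiocyte level 86.5 and 215 CPM, the macrophage level 302 and 238 CPM, and the hepatocyte level 125304 and 114319 CPM. Over 12 to 96 h, 6 of 7 tested genes of the list known for higher expression in female liver were called higher in LKO. Their summed level was 61.0 to 294 CPM in the LKO pools and 4.99 to 39.1 CPM in the control pools, though at 0 h it was 2.76 to 176 CPM in LKO mice and 3.12 to 124 CPM in controls, all labelled male. Of 11 targets of xenobiotic and stress receptors, Cyp2b10, a target of CAR, was called higher in LKO (2.01, SE 0.34, adjusted p = 0.0417) and Hmox1, a target of NRF2, lower (-1.21, SE 0.22, adjusted p = 0.0484). The part of these in the Ugt1a1 and Papss2 values was not tested.

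Other enzymes of the pathway were counted beside the 9, and their counts are to be read against the shares of all genes called higher and lower, 17% and 14.5% at 12 h, 14.1% and 12.1% at 24 h, 10% and 6.71% at 48 h and 11% and 5.81% at 72 h. Of 16 further UGT genes, 10 passed the filter after APAP, and the numbers called lower were 1, 6, 2, 1 and 0 from 12 to 96 h, with none higher. Ugt1a6a and Ugt1a6b, close copies of a phenol-conjugating enzyme that acts on APAP, may share reads with each other, so their levels are uncertain. They were 19.8 to 35.5 and 20.9 to 41.9 CPM at 0 h and 12.8 to 12.9 and 12.7 to 13.6 CPM at 24 h (Ugt1a6b -1.29, SE 0.32, adjusted p = 0.00682). Ugt3a1 was 65.4 to 81.8 CPM at 0 h, and 8.83 CPM in the control pool and 21.1 CPM in the LKO pool at 48 h (-2.43, SE 0.33, adjusted p = 9.39e-05). In HKO at 0 h, 1 of 10 was called, Ugt2b38, which was 25.0 to 35.1 CPM in controls and 7.22 to 11.2 CPM in HKO (-1.60, SE 0.19, adjusted p = 0.00541).

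Among 18 further sulfotransferase genes, 7 passed the filter after APAP. Sult1e1, the estrogen sulfotransferase, was almost silent at 0 h (0 to 0.260 CPM in the 8 mice) and 22.1 and 2.48 CPM in the control and LKO pools at 12 h. It was 13.5 and 27.9 CPM at 24 h and 15.7 and 0.730 CPM at 48 h, and was called higher at 12, 24, 48 and 72 h (adjusted p of 3.12e-06 at 24 h). Sult2a8, a bile acid and steroid sulfotransferase of male liver, went the other way, from 547 to 1028 CPM at 0 h to 87.5 and 144 CPM at 24 h (-2.70, SE 0.50, adjusted p = 0.00105). It was among the genes most like Ugt2a3 in pattern.

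Of 15 further genes of cofactor supply, 3 were called higher and 5 lower at 12 h (17% and 14.5% of all genes), and 5 and 2 at 24 h (14.1% and 12.1%), so that the 3 higher and the later 2 lower are near the shares of all genes. Pgm1, a gene of the phosphoglucomutase family, was 2.86 to 5.59 CPM at 0 h and 32.4 and 15.5 CPM at 24 h (2.37, SE 0.34, adjusted p = 1.88e-04). Slc26a1, a sulfate transporter, was 125 to 192 CPM at 0 h and 42.7 and 60.9 CPM at 24 h (-1.68, SE 0.21, adjusted p = 6.29e-05). Of the 3 deconjugating enzymes 1 was called lower at 12 h and 2 at 24 h.

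Regulators and their other targets were read beside the members. Of 13 transcription factors known to act on conjugation genes, 3 were called lower at 24 h (12.1% of all genes) and at 48 h (6.71%), the pregnane X receptor Nr1i2, Hnf4a and Cebpa. Cebpa, the hepatocyte C/EBP factor, was 507 to 678 CPM at 0 h and 178 and 261 CPM in the control and LKO pools at 48 h (-1.37, SE 0.20, adjusted p = 2.21e-04). Of 11 targets of NRF2, AHR, CAR and PXR, 6 were called higher and 2 lower at 12 h (17% and 14.5% of all genes). Srxn1, an NRF2 target, was 27.2 to 42.9 CPM at 0 h and 1204 and 657 CPM in the control and LKO pools at 12 h (4.69, SE 0.20, adjusted p = 2.80e-10), the hour at which Ugdh was highest in both genotypes. Nqo1, also an NRF2 target, was called higher at 12, 24 and 72 h.

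The genes whose log2 CPM ran most closely with each member over the 18 LKO-cohort libraries are a description of these libraries, which share time points. Ugt2a3 ran with Cyp2j5 (Pearson r = 0.97) and Hibadh (0.97), Ugt2b1 with Slco1a1 (0.96), a male-patterned transporter, and Ugt2b36 with Gm4956 (0.96). Papss2 ran with Nqo2 (0.96) and Fbxo3 (0.95), Ugt2b34 with Sgpp1 (0.91) and Ugt1a1 with Acad10 (0.91). Sult1a1 (Gstm3, 0.83), Ugdh (Top3a, 0.86) and Ugp2 (Eif4a2, 0.83) had no companion as close. Among themselves, the 4 Ugt2 genes had r of 0.84 to 0.92 in all 6 pairs, and Ugt2a3 with Papss2 had 0.85. Ugdh had r of -0.34 to 0.10 with the 8 others.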

How the data were processed

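RNA of whole livers was sequenced as polyadenylated RNA in 24 libraries. The authors trimmed the reads, used STAR for alignment to mm10, and the deposited values are the raw counts per gene that it wrote, in 1 table per library. The column that disregards strand was used, so reads of a gene and an antisense partner cannot be told apart. The annotation version is not given in the sources used here. Reads that mapped to several places (4.69 to 8.06%) or overlapped several genes (1.51 to 2.01%) are in rows that name no gene and were left out.

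Counts were tested with edgeR 4.0.16 (R 4.3.3, limma 3.58.1) after filterByExpr and TMM scaling, using the quasi-likelihood test with Benjamini-Hochberg adjustment over all genes kept. Calls needed an adjusted p under 0.05 with a change of 1.5-fold or more. HKO and LKO were each compared with their own controls at 0 h, and the difference of these effects was tested in 1 fit. LKO was compared with control over 12 to 96 h, and time entered as a block. APAP time points were compared with 0 h over both genotypes, with genotype as a covariate. Single pools were compared by CPM with a prior count of 2 and a 2-fold limit, without a test. The labels do not say that libraries are from separate litters, so p-values measure the spread between these libraries. Floors cover counting error only. Replicate libraries differed by more than sampling noise. DESeq2 1.42.0, other scalings and filters, and leaving out each library were the alternatives, and the edgeR and DESeq2 steps were tested on simulated data. There DESeq2 made more false calls than edgeR in every comparison.

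The members and lists were chosen with earlier results of these data known. Genes outside the 9 were named only as the called genes of a list with the largest changes in a comparison (at most 3), as the 3 genes most like a member, or where clock, NRF2 or sex-patterned genes moved beside one. Ugt1a6a was named after its values were seen. Symbols matched GENCODE vM21 (GRCm38) for 95.8% of the 24411 genes, and promoters of all 9 members were found in RefSeq.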

Additional observations from a re-analysis of the deposited data

How the results depend on the processing

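In HKO at 0 h no member was called, but 1 (Papss2) was with DESeq2 and 1 with the replicate block (log2 fold change -0.71, adjusted p = 0.0474). For LKO against control over 12 to 96 h, 1 (Ugt1a1) was called with DESeq2 and 1 without the filter on low counts. At 48 h after APAP, where 2 members were called, 1 was with library size alone, 1 without the filter, 1 with at least 10 counts in every library, and 4 when scaled to hepatocyte markers, while DESeq2 called 3, with Ugt1a1 added (adjusted p = 0.0224). At 24 h library size alone called 6 in place of 5, with Ugdh added. At 72 h the 1 call became 0 when scaled to hepatocyte markers. Leaving out each library in turn gave 1 to 5 members at 12 h, 1 to 5 at 24 h, 0 to 4 at 48 h and 0 to 1 at 72 h, and 0 in every other comparison. The causes were not tested. Of 27 member results with an unadjusted p under 0.05 none changed sign under any alternative run, whereas 29 of the other 63 did under at least 1. The 27 were picked by p from the same libraries that the alternatives reuse, so their stable sign is no separate support.

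Counts over all genes moved as well. HKO had 119 genes, and 327 with DESeq2, 255 without the filter, 263 with the block and 31 when fitted with the other cohort. LKO at 0 h had 0, and 3 with DESeq2. LKO over 12 to 96 h had 74, and 606 with DESeq2, 42 with library size alone, 22 scaled to hepatocyte markers, 337 without the filter, 34 with at least 10 counts and 0 without the time block. The difference between LKO and HKO effects had 0, and 21 with DESeq2 and 2 without the filter. The change of the LKO effect after APAP had 0, and 39 with DESeq2, 1 scaled to hepatocyte markers and 2 without the filter. At 96 h after APAP 62 became 331 with DESeq2, 41 with library size alone and 20 scaled to hepatocyte markers. Leaving out 1 library moved these counts too, so the shares of all genes printed beside the members move with single libraries. HKO ran from 54 (without Null mouse 1) to 297 (without HKO mouse 1), and LKO over 12 to 96 h from 8 (without either 12 h pool) to 145 (without either 96 h pool). After APAP, 12 h ran from 2079 (without its control pool) to 4354, 24 h from 1143 (without its LKO pool; 1569 without its control pool) to 3608, 48 h and 72 h from 474 (each without its control pool) to 2410 and 2376, and 96 h from 11 (without its LKO pool) to 110 (without the control pool of 12 h). The split into higher and lower genes moved with scaling. At 24 h it was 1873 and 1611, then 2444 and 1117 with library size alone and 1217 and 1806 scaled to hepatocyte markers. At 48 h it was 1336 and 894, then 2139 and 498, and 870 and 1367. At 72 h it was 1469 and 775, then 1668 and 414, and 1011 and 1265. Scaling to hepatocyte markers moved the median of all genes by up to -0.24 (72 h).

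Replicate numbers did not pair the mice. Deviations of same-numbered mice correlated at 0.122, -0.0356 and 0.0648 in the HKO cohort and at -0.315, -0.143, 0.0614 and 0.181 in the LKO cohort. Apart from Papss2 in HKO, the block changed no call of a member. Every member had at least 560 reads in each library. After APAP there is 1 pool per genotype and time point, and at 0 h the spread between mice was wide for Ugt2b1 (SE 0.36 in LKO against control).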
